A study of Mus musculus with 43 samples.

Results

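Autosomal Setdb1 sites inside H3K9 methylated domains were narrow ChIP-seq peaks of Setdb1 on chromosomes 1 to 19 whose summit lay in an H3K9me2 or H3K9me3 peak called in the same kind of cells. They were therefore chosen by the position of the Setdb1 summit and by the H3K9me2 and H3K9me3 calls, and their H3K9 methylation is not a finding. The female list held 154 such peaks of 1104 autosomal peaks, the Setdb1-depleted list 75 of 337 and the male list 560 of 3113, which makes 789 of 4554 autosomal peaks over the 3 lists. Here they are called domain peaks, and the H3K9me3 peak that holds the summit, or the H3K9me2 peak where no H3K9me3 peak does, is called its domain.

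The study compared mouse embryonic fibroblasts (MEFs) from E13.5 embryos, all F1 hybrids of 129/C57 dams and CAST sires, which received a short hairpin by retrovirus and were selected with puromycin. The female cells were *Setdb1*+/+ *Xist*∆A/+ with the Nonsilencing hairpin, the Setdb1-depleted cells were female *Setdb1*+/gt *Xist*∆A/+ with the shSetdb1 hairpin, and the male cells were *Setdb1*+/+ X/Y with the Nonsilencing hairpin. The gt allele is a gene trap and is heterozygous, so the depleted cells keep 1 intact allele, and the *Xist*∆A allele, carried by both kinds of female cells, fixes which X is inactive. Each target had 3 female, 2 Setdb1-depleted and 3 male libraries, which were pooled before peaks were called, so 1 list exists per target and kind of cell and no difference between lists can be set against a spread between replicates. All intervals below are 95% exact binomial intervals, or exact order-statistic intervals of a median, and cover counting error over peaks only.

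Setdb1 is a histone methyltransferase that adds methyl groups to lysine 9 of histone H3. It is known to be brought to chromatin by Krüppel-associated box (KRAB) zinc finger proteins through the co-repressor Trim28 (KAP1), and its known targets include endogenous retroviruses and the 3′ exons of genes that encode zinc finger proteins. H3K9me3 is a mark of constitutive heterochromatin, of which the satellite repeats beside mouse centromeres are the best-known example.

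Many of the sequences under the domain peaks were repeats, and examples of the families that the results turn on are shown. Peaks that shared a run of 30 bases on either strand were joined into a family, which left 335 of the 789 peaks alone. The largest family held 110 peaks and carried the coding repeat of C2H2 zinc fingers. The following examples are the peak of that family with the highest −log10 p in each list, trimmed around the summit where long, each read on the strand of the gene it lies in, with the letters GAGAAACC, part of the code for the linker between neighbouring fingers, in capitals. Coordinates are in mm10, and the bases were read from RefSeq's GRCm38.p6, which has the same chromosomes.

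Zfp989 peak of the female list, chr4:146989823-146990023, + strand: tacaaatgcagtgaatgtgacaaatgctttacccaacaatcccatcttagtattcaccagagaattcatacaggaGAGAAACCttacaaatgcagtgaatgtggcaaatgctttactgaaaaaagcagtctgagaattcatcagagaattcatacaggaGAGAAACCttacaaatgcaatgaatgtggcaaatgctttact

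Zfp987 peak of the Setdb1-depleted list, chr4:146125163-146125336, + strand: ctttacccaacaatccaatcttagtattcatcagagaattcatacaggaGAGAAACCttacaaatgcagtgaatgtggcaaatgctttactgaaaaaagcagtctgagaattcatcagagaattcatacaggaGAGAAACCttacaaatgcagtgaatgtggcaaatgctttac

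Zfp534 peak of the male list, chr4:147675166-147675350, − strand: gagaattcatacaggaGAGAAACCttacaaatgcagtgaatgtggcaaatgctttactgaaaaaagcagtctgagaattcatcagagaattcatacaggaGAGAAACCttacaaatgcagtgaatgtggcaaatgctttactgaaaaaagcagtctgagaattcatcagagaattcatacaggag

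In each of the 3 stretches 2 linkers stood 84 bases apart, which is the length of the code for 1 finger. A second family of 83 peaks on chromosomes 9 and 11 is here called the satellite family, since most of its members resembled the mouse major satellite, and its example has the letters GAAATGTCC in capitals.

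Satellite peak of the Setdb1-depleted list, chr9:3026619-3026760, − strand: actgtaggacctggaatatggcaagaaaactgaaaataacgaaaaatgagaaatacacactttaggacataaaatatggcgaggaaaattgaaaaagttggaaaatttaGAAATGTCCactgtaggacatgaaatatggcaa

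Both peaks that were single-copy in the female and the Setdb1-depleted list are shown next, followed by the single-copy peak with the highest −log10 p of the Setdb1-depleted list. Here the capitals mark the 50 bases at the summit that were used to count copies in the genome.

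Chromosome 4 peak of the female list, chr4:3089872-3089982, + strand: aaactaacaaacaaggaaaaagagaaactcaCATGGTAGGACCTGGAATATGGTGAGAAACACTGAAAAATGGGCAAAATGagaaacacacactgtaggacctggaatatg

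Chromosome 11 peak of the female list, chr11:3102051-3102202, + strand: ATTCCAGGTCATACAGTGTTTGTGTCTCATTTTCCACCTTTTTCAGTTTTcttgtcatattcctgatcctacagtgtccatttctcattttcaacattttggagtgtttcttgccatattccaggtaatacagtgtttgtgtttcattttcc

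Chromosome 17 peak of the Setdb1-depleted list, chr17:4626187-4626387, + strand: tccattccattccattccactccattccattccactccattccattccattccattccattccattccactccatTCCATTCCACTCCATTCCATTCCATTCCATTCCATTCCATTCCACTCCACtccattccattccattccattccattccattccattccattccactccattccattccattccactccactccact

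The chromosome 11 sequence was joined to the satellite family, and the chromosome 17 sequence was a run of short repeats around TCCAT. The chromosome 4 sequence was not joined to the satellite family under the rule of a shared run. It nevertheless ends in the letters actgtaggacctggaatatg, which also open the satellite example of the Setdb1-depleted list.

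The depth behind the lists differed. After down-sampling, 18134299 reads entered the female call, 14405821 the Setdb1-depleted call and 12320583 the male call, so the list with the fewest reads held the most peaks. MACS2 kept 1 read per position and strand, which limits a pileup (the number of extended reads over the summit) to 2 times the fragment length, or 202, 194 and 196 reads in the female, Setdb1-depleted and male lists. For the Setdb1-depleted list, the hairpin written in the header (non-silencing) is not the one in the labels (shSetdb1), so differences of that list from the others cannot be ascribed to depletion by these files alone.

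In female, Setdb1-depleted and male cells H3K9 domains covered 4.89%, 3.31% and 4.59% of the sequenced bases of autosomes. Domain peaks made up 13.9% of autosomal Setdb1 peaks in the female list (11.96 to 16.1), 22.3% in the Setdb1-depleted list (17.9 to 27.1) and 17.99% in the male list (16.7 to 19.4). The share of peaks was thus 2.85, 6.72 and 3.92 times the share of bases. The share was lowest in the female list. The intervals of the female and the Setdb1-depleted share did not overlap, but they cover counting error over peaks only. Libraries were pooled and read depth differed between the lists, so these intervals cannot show whether the kinds of cells differ.

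At most summits the domain carried H3K9me3. H3K9me3 without H3K9me2 was found at 91 of 154 female, 33 of 75 Setdb1-depleted and 259 of 560 male domain peaks, both marks at 49, 31 and 270, and H3K9me2 alone at 14, 11 and 31. These counts follow from the rule.

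H3K27me3, which the rule did not use, is the mark of Polycomb repression and is generally found apart from H3K9me3. It was present at 35.1% of female domain peaks (54 of 154; 27.6 to 43.2), 46.7% of Setdb1-depleted (35 of 75; 35.0 to 58.6) and 50% of male (280 of 560; 45.8 to 54.2). The male count includes 74 peaks of the satellite family, which lay close together on chromosome 9. Among the other autosomal Setdb1 peaks the shares were 8.32%, 9.16% and 7.60%. Of the bases of all H3K9 domains, with or without a Setdb1 peak, 17.0%, 12.2% and 18.8% lay in H3K27me3 peaks. The overlap was concentrated where both H3K9 marks were called, at 36 of 49 female, 25 of 31 Setdb1-depleted and 222 of 270 male peaks, and at 13 of 91, 5 of 33 and 46 of 259 peaks with H3K9me3 alone. H3 reads moved with these peaks too. Of the domains that held a Setdb1 peak, 7.39%, 28.7% and 5.32% (female, Setdb1-depleted, male) had over 2 times the median H3 reads per kb of all H3K9 domains, against 0.439%, 0.481% and 0.233% of those without one. H3 was also the control of the histone calls, and its part in the overlap was not tested. The authors state that their H3K9me3 antibody cross-reacts slightly with H3K27me3, which they judge unlikely to matter for their analyses. Its part in the overlap was not tested here either.

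Domain peaks were low in most cases. The median pileup was 7 reads in the female list (interval 7 to 8, range 5 to 44), 9 in the Setdb1-depleted list (8 to 14, range 5 to 143) and 7 in the male list (7 to 8, range 4 to 196). The other autosomal peaks had medians of 7, 7 and 6 reads. The upper end differed more than the middle. At least 20 reads were reached by 10 of 154 female (6.49%), 20 of 75 Setdb1-depleted (26.7%) and 124 of 560 male domain peaks (22.1%), and by 2.63%, 5.34% and 1.92% of the other peaks. The median fold over input was 3.94, 4.01 and 3.66, against 3.92, 4.01 and 3.65 outside, so the medians of fold were close. The upper quartile of fold was 4.381, 5 and 4.745 in domain peaks, against 4.042, 4.579 and 4.254 outside.

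**Figure D1:**
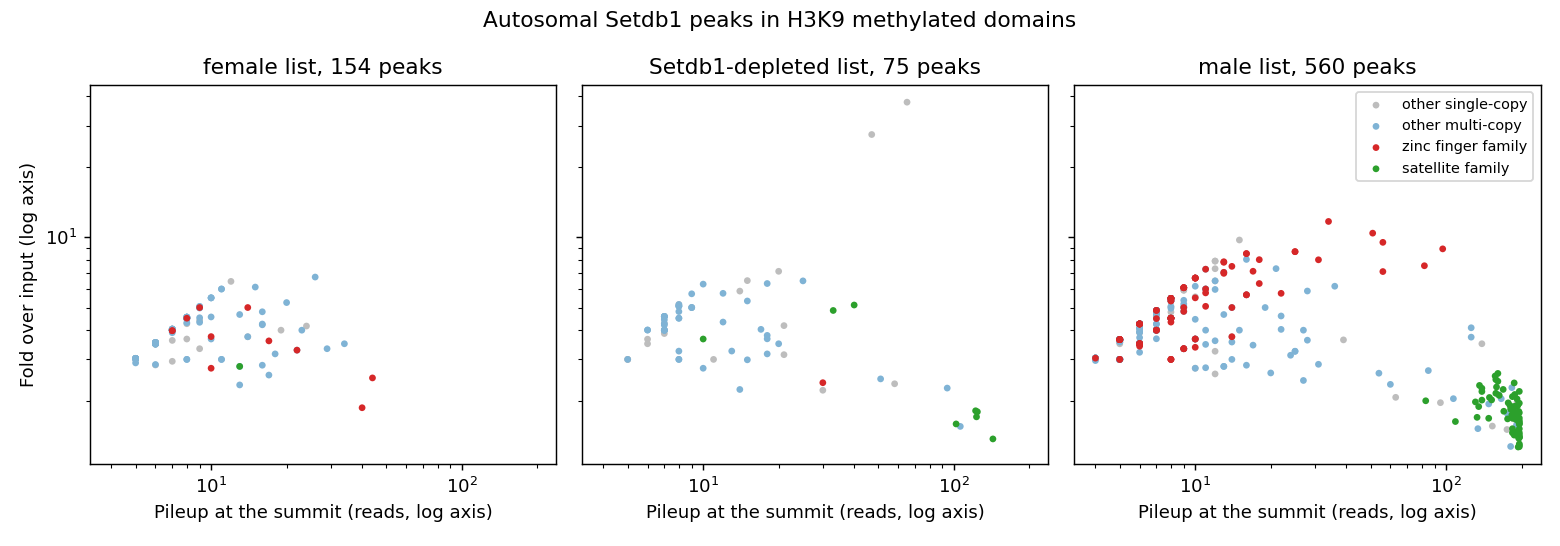
Fold over input against pileup at the summit for every domain peak, on log axes, with 1 panel per list and colours for the sequence families. The male satellite family sits at pileups from 83 to 196 reads with folds from 1.27 to 2.61, whereas the zinc finger family reaches a fold of 11.7.

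A false discovery rate under 0.05 was met by 18.8% of female domain peaks (29 of 154), 44.0% of Setdb1-depleted (33 of 75) and 48.4% of male (271 of 560). Outside the domains it was met by 11.3%, 23.7% and 20.4%. Most female domain peaks were thus calls that passed only the looser p of 0.001.

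The peaks were short. The median length was 108.5 bp in the female list (104 to 119), 107 bp in the Setdb1-depleted list (99 to 113) and 128.5 bp in the male list (118 to 135), and the shortest possible peaks of 101, 97 and 98 bp equal the fragment length. Other autosomal peaks had medians of 101, 97 and 98 bp. In the male list 134 domain peaks (23.9%) exceeded 200 bp, against 4 female (2.60%) and 5 Setdb1-depleted (6.67%). Among other peaks the shares were 5.37% in the male, 3.89% in the female and 1.15% in the Setdb1-depleted list, so the female share was not above that of other peaks. Male zinc finger and satellite peaks had median lengths of 218.5 and 217.5 bp. Outside these families the male medians were 109 bp at summits with several copies and 111.5 bp at single-copy summits. The longest domain peak, in the male list, spanned 2974 bp (chr1:24613179-24616152) with a pileup of 192 reads, and it was named after its values were seen. Its summit was single-copy, but copies in the mitochondrial genome were not counted. Single-copy male domain peaks outside the families with that pileup had folds of only 1.91 and 1.97.

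Most domain peaks lay in sequence that occurs more than once. The 50 bases at the summit had a second exact copy in the genome at 74.0% of female (114 of 154; 66.4 to 80.8), 68.0% of Setdb1-depleted (51 of 75; 56.2 to 78.3) and 71.4% of male domain peaks (400 of 560; 67.5 to 75.1). The shares were 23.7%, 33.2% and 17.0% among other autosomal peaks. Soft-masked bases, which mark repeats in the reference, made up a median of 91.2%, 78.6% and 89.8% of the 501 bases around the summit, compared with 28.3%, 41.4% and 31.5% outside. All H3K9 domains together, with or without a Setdb1 peak, were 58.7%, 56.1% and 57.9% soft-masked and the autosomes 33.5%. GC content was a median of 37.9%, 40.3% and 37.5%. A read from a multi-copy sequence may come from any of its copies, and how such reads were placed is not given in the sources used here.

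**Figure D2:**
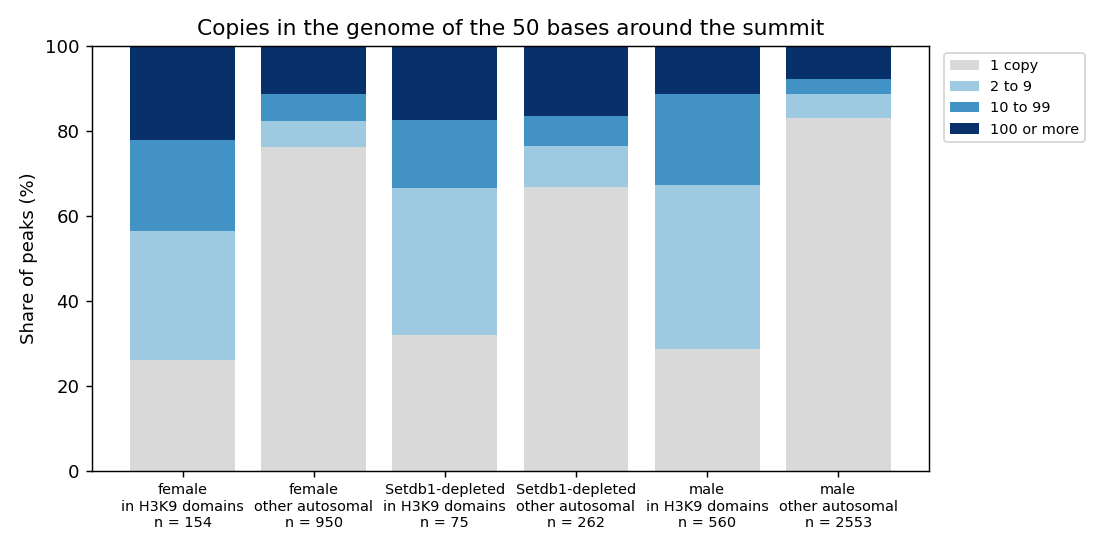
Share of Setdb1 peaks by the number of copies in the genome of the 50 bases at the summit, for domain peaks and other autosomal peaks of each list. Single-copy summits were 40 of 154, 24 of 75 and 160 of 560 domain peaks in the female, Setdb1-depleted and male lists, a smaller share than outside in each.

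Of the 789 domain peaks, 454 (57.5%) shared a run of 30 bases with another. The zinc finger family was the largest, with 11 peaks in the female list (7.14%; 3.62 to 12.4), 1 in the Setdb1-depleted list (1.33%; 0.0338 to 7.21) and 98 in the male list (17.5%; 14.4 to 20.9). In 101 of its 110 peaks the 501 bases at the summit held a pair of GAGAAACC motifs 84 bases apart on the same strand, a pattern searched on both strands after the family had been seen. A single GAGAAACC was found in 5.05% of windows and also in 12 peaks of the satellite family. The pair was found in 0.0186% of all 4781883 autosomal windows of 501 bases and in 0.105%, 0% and 0.979% of the other autosomal peaks of the female, Setdb1-depleted and male lists. Over all domain peaks it was found in 10 of 154 (6.49%), 1 of 75 (1.33%) and 92 of 560 (16.4%).

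The zinc finger family lay in genes. Its summits fell in exons of protein-coding genes at 41 of 110 peaks, in introns at 5, in other gene models such as pseudogenes at 39 and between genes at 25. The exonic peaks touched 28 genes, of which 22 were named Zfp, and in 39 of 43 pairs of peak and gene the summit lay in the last 20% of the gene, with a median place of 0.952 on a scale from the start of the gene (0) to its end (1). The code for the fingers of such genes lies in the last coding exon. The pileup of the family ran from 4 to 97 reads with a median of 8, and its fold from 1.86 to 11.7 with a median of 4.50, against 1.78 in the satellite family.

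At *Zfp987* a domain peak was found in all 3 lists. The pileup was 40 reads in the female list, 30 in the Setdb1-depleted list and 82 in the male list, and the fold was 1.86, 2.39 and 7.54. At a further 4 zinc finger genes a domain peak of the female list overlapped one of the male list. At *Zfp534* the pileup was 44 reads in the female and 97 in the male list, with folds of 2.5 and 8.91. At *Zfp988* it was 22 and 51 reads, with folds of 3.29 and 10.4. At *Zfp989* it was 14 and 25 reads, with folds of 5.00 and 8.67. At *Zfp951* the order was reversed, with 9 reads and a fold of 5.00 in the female list against 6 reads and 4.25 in the male. The products of these genes are predicted zinc finger proteins.

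These peaks were clustered. Domain peaks whose neighbours lay within 500 kb were chained, which gave 329 chains, of which 7 held 10 or more. The 7 chains held 313 peaks in all, 18.8% of female, 25.3% of Setdb1-depleted and 47.3% of male domain peaks. On chromosome 4, 58 peaks (15 female, 4 Setdb1-depleted, 39 male) lay between 145445024 and 147839319, over 22 protein-coding genes of which 18 were named Zfp, among them *Zfp990*, *Zfp600* and *Zfp984*. A single H3K9me3 domain of 965 kb in female cells (chr4:146885001-147850000) and of 960 kb in Setdb1-depleted cells (chr4:146885001-147845000) covered the distal end of that cluster and held 7 female peaks, the most of any female domain, with pileups of 7 to 44 reads. Outside the domains the cluster held 1 further Setdb1 peak, in the male list.

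The other zinc finger clusters were smaller and mostly male. On chromosome 12, 30 peaks between 21672340 and 24215688 were all from the male list, with pileups of 4 to 16 reads, and 28 of them held the pair of linkers although only 2 protein-coding genes are annotated there. On chromosome 13, 14 peaks (3 female, 11 male) lay between 65512671 and 66852346, and on chromosome 17, 10 peaks (1 female, 9 male) lay between 17039816 and 17265835 over *Zfp960* and *Zfp97*. Female cells were not without methylation there, since the domains of 27 of the 30 chromosome 12 peaks and of all 24 peaks on chromosomes 13 and 17 were found in the female H3K9 lists as well. Of all 418 autosomal genes named Zfp, Zscan or Zkscan, 10 had a domain peak within 10 kb in the female list (2.39%), 4 in the Setdb1-depleted list (0.957%) and 30 in the male list (7.18%), while 87, 56 and 77 touched an H3K9 domain. Of all 20807 autosomal protein-coding genes, 0.332%, 0.173% and 1.00% had a domain peak that near.

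The satellite family held 1 female, 8 Setdb1-depleted and 74 male peaks, and all 83 lay in H3K27me3 peaks. All 74 male peaks and 5 of the Setdb1-depleted peaks lay within 38.2 kb at the start of chromosome 9 (3000038 to 3038249), in an H3K9me3 domain of 80 kb that held the most domain peaks of both lists. Male pileups there ran from 83 to 196 reads with a median of 188, and 52 of them lay within 10% of the limit of 196. Setdb1-depleted pileups ran from 102 to 143 reads. Fold over input was low, with a median of 1.77 in the male and 1.70 in the Setdb1-depleted list. The female list had no peak there, although its H3K9 domains covered 100% of the same span. Other members of the family lay on chromosome 11, where *Sfi1* was the nearest gene and the Setdb1-depleted peak at 3100480 to 3100578 reached 40 reads and a fold of 5.12 (−log10 p of 17.8).

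In all, 105 male domain peaks reached 50 reads, of which 74 belonged to the satellite family, and 10 Setdb1-depleted peaks did, of which 5 belonged to it. No female domain peak reached 50 reads.

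Outside these families, multi-copy summits accounted for 104 female, 46 Setdb1-depleted and 270 male domain peaks and single-copy summits for 38, 20 and 118. The largest chain was on chromosome 14, where 99 peaks (4 female, 2 Setdb1-depleted, 93 male) lay between 3022245 and 7661251 over 99 protein-coding gene models named mostly Gm. Their pileups were low, from 4 to 12 reads, 88 of them were multi-copy and 71 were in H3K27me3. Male H3K9 domains covered 83.2% of that span, female 41.6% and Setdb1-depleted 27.05%. On chromosome 8, 23 peaks (6 female, 8 Setdb1-depleted, 9 male) lay between 19766191 and 20825745 with pileups of 8 to 29 reads, and 22 of them were in H3K27me3. This was the only chain of 10 or more in which the Setdb1-depleted list held more peaks than the female list apart from the one on chromosome 9.

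At a single-copy summit the 50 bases have 1 exact place in the chromosomes and scaffolds searched. The 2 strongest domain peaks of the Setdb1-depleted list were of this kind. One lay between genes on chromosome 17 (chr17:4626167-4626594), with 65 reads, a fold of 37.8 and a −log10 p of 101. The other lay in an intron of *Ano2*, a calcium-activated chloride channel gene (chr6:125876908-125877033), with 47 reads and a fold of 27.5. The 2 peaks shared a run of 30 bases with each other. Both sites also had a Setdb1 peak in the other lists, of 66 reads in the female (a summit with 3 copies) and 173 in the male list on chromosome 17, and of 39 and 90 reads at *Ano2*. Those peaks were not domain peaks, because an H3K9me2 domain was called there in the Setdb1-depleted lists and not in the others. Among the genes looked up by name, *Polrmt* had a Setdb1 peak in the female and male lists and *Atf7ip*, *Mbd1* and *Peg3* in 1 list each, none of them a domain peak, and *Setdb1*, *Trim28*, *H19*, *Kcnq1ot1* and *Dazl* had no Setdb1 peak within 10 kb.

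The strongest female domain peaks were modest. The 10 with the highest −log10 p included a peak in an intron of *Atp8b5*, a phospholipid-transporting ATPase gene (chr4:43298972-43299089; 20 reads, fold 5.25, −log10 p of 10.9) and one in *Snhg14*, a long non-coding RNA gene that hosts small nucleolar RNAs (chr7:59859884-59860039; 15 reads, fold 6.12, −log10 p of 10.6). The highest −log10 p of male domain peaks were those of the *Zfp534* (60.3) and *Zfp987* (45.9) exons. The 10 highest also included 3 peaks in an intron of *Myo3a*, a myosin gene, with 126 to 139 reads and folds of 3.50 to 4.10. The summits of 126 reads had 2 copies and that of 139 reads was single-copy, but copies in the mitochondrial genome were not counted. Whether reads from elsewhere were placed there was not tested.

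The gene context of domain peaks, set against that of other Setdb1 peaks, was not the same in the 3 lists. Domain peaks lay between genes at 61.7% in the female, 65.3% in the Setdb1-depleted and 47.0% in the male list, and in introns of protein-coding genes at 17.5%, 21.3% and 21.1%. Other autosomal peaks lay between genes at 49.4%, 50.8% and 51.4% and were intronic at 41.4%, 37.0% and 36.5%. Domain peaks were thus between genes more often than others in the female and Setdb1-depleted lists and less often in the male list. None of the 74 male satellite peaks, all at the start of chromosome 9, lay between genes, and 24 of them were exonic. Between genes lay 25 of 98 male zinc finger peaks. Outside the zinc finger and satellite families it was 168 of 270 multi-copy and 70 of 118 single-copy male domain peaks. The lower male share between genes was thus not found outside these families. The male shares were not recomputed without the satellite family, so their direction may rest on it. Exons of protein-coding genes held 8 female (5.19%), 3 Setdb1-depleted (4.00%) and 72 male domain peaks (12.9%), against 3.05%, 4.198% and 4.58% of other peaks. Protein-coding start sites lay within 1 kb of 1 female (0.649%), 2 Setdb1-depleted (2.67%) and 72 male domain peaks (12.9%). Among other peaks the shares were 6%, 6.87% and 4.78%, so the female share was below and the male share above that of other peaks. The female one was *Zfp988* and both Setdb1-depleted ones were satellite gene models on chromosome 9, *Gm10717* and *Gm10719*, as were 57 of the 72 in the male list. Named genes among the other male ones were *Zfp68*, *Zfp981*, *Zfp988*, *Rbm12* and *Sfi1*. The first 5 Mb of a chromosome, which adjoin the centromere, held 6 female (3.90%), 17 Setdb1-depleted (22.7%) and 135 male domain peaks (24.1%), against 2.95%, 2.67% and 2.31% of other peaks. The satellite family accounted for 1 of the female, 8 of the Setdb1-depleted and 74 of the male ones, and these shares were not recomputed without it.

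The place of a peak within its domain was measured from the nearer edge, where 0 is the edge, 1 the centre and 0.5 the median of an even spread. The median place was 0.572 in the female list (0.487 to 0.656), 0.611 in the Setdb1-depleted list (0.513 to 0.685) and 0.631 in the male list (0.615 to 0.662). The female interval included 0.5 and the other intervals did not. The zone of 25% next to the edge held 18.2%, 16.0% and 12.9% of domain peaks and the zone of 25% next to the centre 36.4%, 32.0% and 36.8%. In domains of at least 20 kb the medians were 0.561 (0.447 to 0.642), 0.583 (0.413 to 0.648) and 0.624 (0.592 to 0.641), so that only the male interval excluded 0.5. Domains of domain peaks had a median length of 25 kb, 40 kb and 50 kb, and the median distance from the edge was 7.10 kb, 9.55 kb and 11.6 kb.

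**Figure D3:**
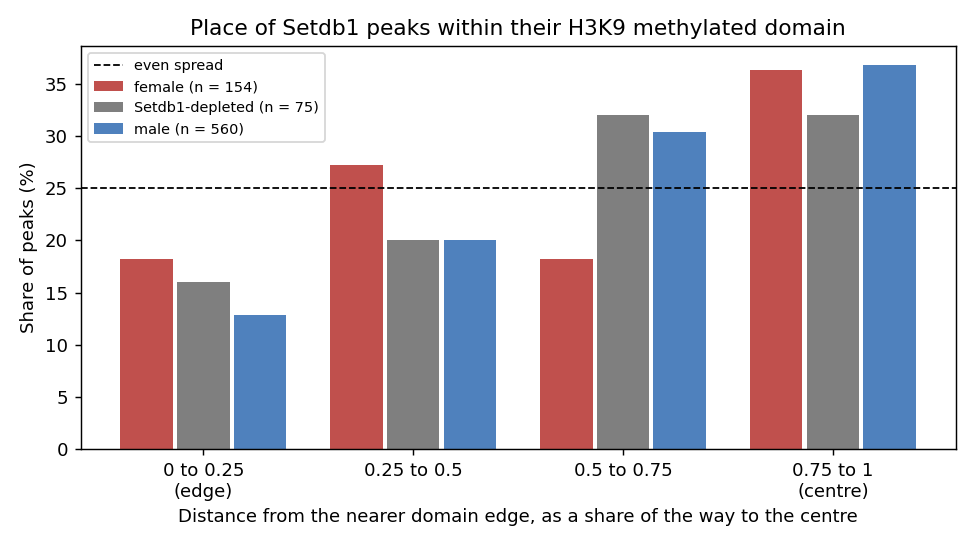
Share of domain peaks in 4 equal zones from the edge of the domain (0) to its centre (1), for each list, with the 25% of an even spread as a dashed line. In each list the zone at the edge is below that line, from 12.9% to 18.2%, and the zone at the centre is above it.

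The rule has its threshold at the domain edge. The domain peak nearest to an edge lay 263 bp inside in the female list (chr7:47629699-47629799, 7 reads), 44 bp inside in the Setdb1-depleted list (chr4:52230026-52230138, 10 reads) and 145 bp inside in the male list (chr4:8484789-8484906, 8 reads). The nearest peaks outside lay 77 bp (7 reads), 4155 bp (8 reads) and 326 bp (8 reads) from a domain.

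Domains that held a Setdb1 peak were longer than the rest. Counting both marks, they numbered 176 of 7459 female, 87 of 4666 Setdb1-depleted and 451 of 6891 male H3K9 peaks. Their median length was 25 kb, 35 kb and 25 kb, against 15 kb for those without a Setdb1 peak in each kind of cells. H3K27me3 touched 48.9%, 54.0% and 51.9% of them, compared with 20.1%, 13.4% and 19.4% of the rest. A longer domain has more room for both, so lengths are kept apart below where H3K9 peaks with and without a Setdb1 peak are compared.

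Whether the domains stay when Setdb1 is depleted was asked by overlap with the H3K9 peaks of the Setdb1-depleted lists. Of the 154 female domain peaks, 107 (69.5%; 61.6 to 76.6) lay in a domain with at least 1 base in an H3K9 peak of those lists, and 101 (65.6%) had their summit itself in one. The background was lower, since 38.2% of all female autosomal H3K9 peaks overlapped an H3K9 peak of the Setdb1-depleted lists. Counted by H3K9 peaks, 126 of the 176 that held a Setdb1 peak (71.6%; 64.3 to 78.1) and 2725 of the 7283 others (37.4%; 36.3 to 38.5) were found again.

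Part of that difference went with length. Among peaks of 10 kb, 38.2% of those with a Setdb1 peak (13 of 34; 22.2 to 56.4) and 23.8% of the rest were found again, and among those of 20 to 25 kb 60% (15 of 25; 38.7 to 78.9) and 53.3%. Among those of 30 kb or more 98.8% (80 of 81; 93.3 to 99.97) and 78.2% (74.5 to 81.5) were found again, and only there did the 2 intervals of female cells not overlap. In male cells the intervals did not overlap in any length class. The shares with and without a Setdb1 peak were 41.1% (29.7 to 53.2) and 24.8% (23.3 to 26.5) at 10 kb, 55.6% (45.7 to 65.1) and 36.0% (34 to 38) at 15 kb, 74.7% (63.3 to 84) and 50% (46.7 to 53.3) at 20 to 25 kb, and 84.1% (78.2 to 88.9) and 73.0% (68.7 to 76.9) at 30 kb or more. Lengths within the class of 30 kb or more still differ, and the part of length within it was not tested. Where a site had both an H3K9me2 and an H3K9me3 peak, both were counted. The intervals treat such overlapping peaks as separate and may therefore be too narrow.

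**Figure D4:**
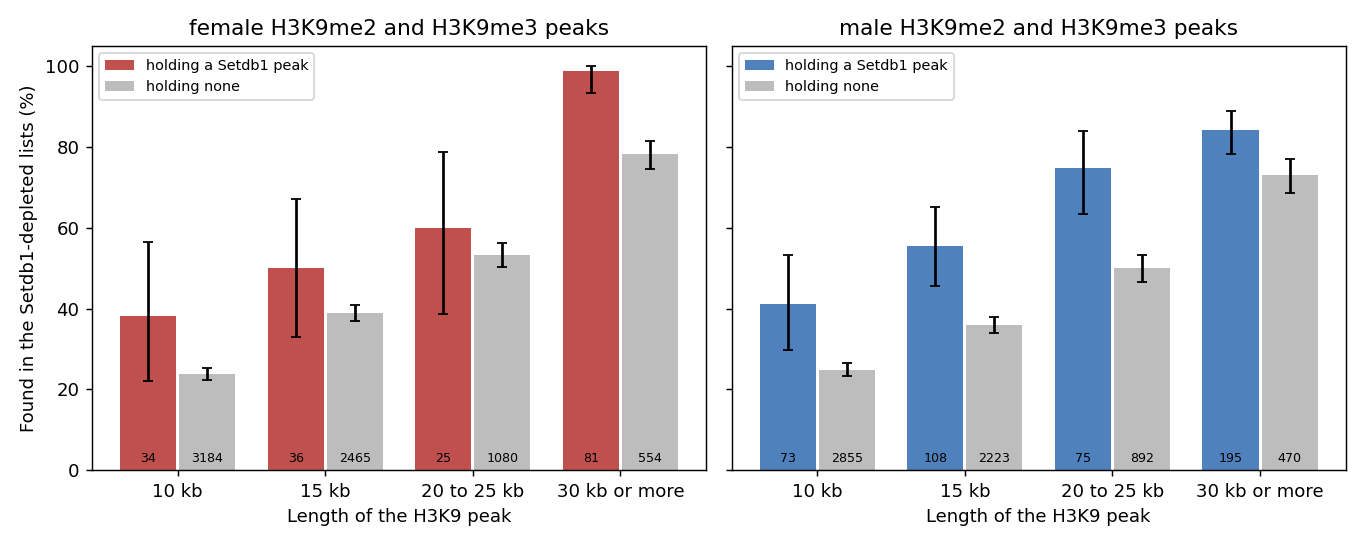
Share of female (left) and male (right) autosomal H3K9me2 and H3K9me3 peaks that overlapped an H3K9 peak of the Setdb1-depleted lists, by length class, for peaks that held a Setdb1 peak and peaks that held none. Error bars are 95% exact binomial intervals and the number of peaks stands in each bar, and in each class the share is higher where a Setdb1 peak was held, from 38.2% to 98.8% in female cells.

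The excess was not particular to the Setdb1-depleted lists. In the male lists, 121 of the 154 female domain peaks (78.6%) had their domain, against 53.9% of all female H3K9 peaks. Of the 560 male domain peaks, 424 (75.7%; 71.9 to 79.2) had their domain in the Setdb1-depleted lists and 473 (84.5%) in the female lists, where the backgrounds for all male H3K9 peaks were 37.8% and 57.6%. Of the 75 Setdb1-depleted domain peaks, 63 (84%) had it in the female lists and 63 in the male lists, with backgrounds of 58.8% and 54.1%. These shares count Setdb1 peaks, of which several can share a domain, whereas the backgrounds count H3K9 peaks. Counted by H3K9 peaks, 81.25% of the female ones with a Setdb1 peak and 53.2% of the others were found in the male lists. By length these shares were 52.9% and 43.6% at 10 kb and 69.4% and 56.15% at 15 kb. They were 80% and 62.5% at 20 to 25 kb and 98.8% and 77.1% at 30 kb or more.

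Domains with more marks were found again more often. Where H3K9me2 and H3K9me3 were both present at the summit, 46 of 49 female domain peaks (93.9%; 83.1 to 98.7) had their domain in the Setdb1-depleted lists, against 57 of 91 with H3K9me3 alone (62.6%; 51.9 to 72.6) and 4 of 14 with H3K9me2 alone (28.6%; 8.39 to 58.1). Female domain peaks also in H3K27me3 kept their domain at 48 of 54 (88.9%; 77.4 to 95.8) and the rest at 59 of 100 (59.0%; 48.7 to 68.7). In the male list the corresponding shares were 89.3% and 62.1%. All these shares pool domain lengths and count an overlap with either H3K9 mark. Counting only the mark of the domain, the female numbers were 43 of 49 with both marks, 52 of 91 with H3K9me3 alone and 3 of 14 with H3K9me2 alone. The part of length was not tested.

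The peaks whose domain was found again were higher. The median pileup was 8 reads (range 5 to 44) for the 107 female peaks whose domain was found in the Setdb1-depleted lists and 6 reads (range 5 to 10) for the 47 whose domain was not. The 2 groups overlapped, but no peak above 10 reads was in the second. Median domain lengths were 60 kb and 15 kb, and the multi-copy shares 77.6% and 66.0%. All 10 female domain peaks with the highest −log10 p had their domain in the Setdb1-depleted lists. By family, the domain was found again for 10 of 11 female and 94 of 98 male zinc finger peaks and for all 74 male satellite peaks. These are counts of peaks and not of separate domains. The 74 satellite peaks shared a single domain of 80 kb, and zinc finger peaks of the chromosome 4 cluster shared domains too. For single-copy summits outside the families it was found for 22 of 38 female (57.9%) and 58 of 118 male peaks (49.2%).

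The Setdb1 peaks themselves were rarely found in a second list. The 789 domain peaks made up 768 separate sites, of which 748 were in 1 list, 19 in 2 lists and 1, at *Zfp987*, in all 3. A Setdb1 peak of the Setdb1-depleted list overlapped 4 of the 154 female domain peaks (2.60%; 0.712 to 6.52), against 1.9% of all female autosomal peaks. A male Setdb1 peak overlapped 13 of them (8.44%; 4.57 to 14), against a background of 4.8%. Of the 75 Setdb1-depleted domain peaks, 5 were found in the female list (6.67%) and 11 in the male list (14.7%), with backgrounds of 6.23% and 12.2%. Of the 560 male domain peaks, 14 were found in the female list (2.5%) and 11 in the Setdb1-depleted list (1.96%), with backgrounds of 1.67% and 1.32%. The interval of each share includes its background, but these backgrounds count the domain peaks too. Among the other female autosomal peaks alone, 40 of 950 (4.21%) overlapped a male Setdb1 peak. That value lies below the interval of the female domain peaks (4.57 to 14). The intervals of the remaining shares included the value of the other autosomal peaks.

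The sites in more than 1 list were mostly of the families above. Between the female and the Setdb1-depleted list they were the *Zfp987* exon, the chromosome 4 peak at 3089872 to 3089982 (24 reads in the female and 20 in the Setdb1-depleted list, folds of 4.17 and 7.14) and the chromosome 11 peak at 3102051 to 3102202 (13 and 10 reads, folds of 2.80 and 3.67). Between the female and the male list, besides the 5 zinc finger genes, they lay on chromosome 3 at 12857110 to 12857218 (17 reads in the female and 34 in the male list), at 2 sites on chromosome 6 (18 and 19 reads at 47760115 to 47760227, and 16 and 11 reads at 79633638 to 79633772) and at 2 sites on chromosome 12 (7 and 13 reads at 18648808 to 18648980, and 7 and 9 reads at 19303108 to 19303208). Between the Setdb1-depleted and the male list they were the *Zfp987* exon, 4 satellite peaks of chromosome 9 with 122 to 143 reads in the Setdb1-depleted and 133 to 180 in the male list, 2 further multi-copy peaks, a peak on chromosome 2 at 181931488 to 181931709 (58 and 63 reads) and one on chromosome 10 at 29958717 to 29958813 (9 and 8 reads).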

How the data were processed

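Setdb1, H3K9me2, H3K9me3 and H3K27me3 were measured by ChIP-seq in 3 kinds of cells. The authors aligned reads with Bowtie2 to an N-masked mm10, pooled the libraries of a group and called Setdb1 peaks with MACS2 2.1.0.20140616 against whole cell extract at p of 0.001 with down-sampling. The deposited Setdb1 lists give a signal (pileup), −log10 p and q values and a fold ratio over input per peak, per the file headers. Histone peaks were called by the authors in Seqmonk against H3, and the deposited lists give positions and H3 reads on a log2 scale. CASAVA 1.4 is listed in the submitters' processing notes. Titles and tissue name MEFs although the protocol text speaks of NSCs.

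From these, summits were placed in domains, and copies of the 50 bases at each summit (both strands, exact) were counted over the assembled chromosomes and scaffolds of GRCm38.p6. The mitochondrial genome was not searched. Multi-copy means 2 or more. Genes came from GENCODE M21. Sequence families joined peaks that share 30 bases. Values are medians, counts and exact intervals (scipy 1.17.1 and numpy 2.4.6 under Python 3.11.15, tables with pandas 2.3.3, figures with matplotlib 3.10.9). The counting of copies and the placing of positions in merged domains were tested on simulated data first. No test between groups was possible, as 1 pooled list exists per group. The members, gene lists and comparisons were chosen with earlier results of these data known. Named sites were the 10 with the highest −log10 p per list, those in more than 1 list, those within 1 kb of a protein-coding start and the fullest domain of each list, with exonic zinc finger sites, chains of at least 10 and other extremes added after values were seen. Some repeat sequences and the sites that hold them are not reported here.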

Additional observations from a re-analysis of the deposited data

How the results depend on the processing

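Of 77 alternatives computed, 54 stayed within 1.5 times the count or within the interval of the median or share, and 23 did not. The number of domain peaks in the female, Setdb1-depleted and male lists was 29, 33 and 271 with q under 0.05, 63, 42 and 301 with H3K9me2 alone and 40, 24 and 160 with single-copy summits. It was 66 in the female and 358 in the male list with −log10 p of at least 5, and 335 in the male list with 1 peak per domain. With −log10 p of at least 5 the median pileup was 9 reads in both the female and the male list and the male median length 135.5 bp. The median length of the Setdb1-depleted list was 132 bp with single-copy summits, and the male median place was 0.612 in merged domains. The share of female domain peaks whose domain was found in the Setdb1-depleted lists was 60% with single-copy summits. The male share was 63.2% with at least 50% of the domain, 71.1% with the same mark, 68.4% by summit position, 70.8% past the first 5 Mb and 60.6% with single-copy summits. The cause of these moves was not tested. Leaving out the chain with most peaks of a list or the satellite family, both chosen after seeing the data, changed none of the results recomputed beyond those limits. No replicate could be left out, and no paired analysis was possible because the lists hold no column for single libraries. The histone lists give no depth, and the Setdb1 lists were called at unequal depth.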
